A study of Mus musculus with 6 samples.

Results

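The genes described here are 35 genes of purine, pyrimidine and one-carbon synthesis, the enzymes that build, recover and interconvert nucleotides. They were chosen by symbol, as the rows of the count table whose Ensembl identifier maps to a listed name, and all 35 were found among 49671 genes. RNA was compared between 3 libraries of CD73 KO and 3 libraries of WT OT-I CD8 T cells, which carry a transgenic receptor for the ovalbumin peptide SIINFEKL. CD73, encoded by Nt5e, is a surface enzyme that turns AMP into adenosine. Both groups share the OT-I receptor and the same treatment. Splenic cells of either genotype were given the peptide at 10 ng/mL on each of 5 days with the cytokines IL-7 and IL-15, each at 5 ng/mL, a culture intended to drive exhaustion, and live cells were sorted for RNA. In both groups the cells were replated at 48 hours. The labels give no age, no description of the CD73 KO allele and no statement on whether replicate libraries stem from different mice or wells. The p-values below therefore reflect only how far these libraries scatter, and that scatter may be technical.

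Purine rings are built on ribose phosphate in a chain of steps that ends at IMP, from which the AMP and GMP branches part. Pyrimidine rings are built first and then joined to ribose, giving UMP and from it CTP. Folate-bound one-carbon units, taken mainly from serine, supply carbon atoms of the purine ring and the methyl group of thymidylate, and ribonucleotide reductase turns ribonucleotides into the precursors of DNA. Activated T cells raise these pathways when they divide, and recycled bases and nucleosides enter by salvage enzymes.

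The targeted gene did not separate the groups. Nt5e (chr9:88327197-88372092) held 69, 128 and 88 counts in the CD73 KO libraries, against 290, 49 and 263 counts in the WT libraries. The library labelled WT replicate 2 stood at 5.22 CPM (counts scaled to a common library total with TMM factors), with an exact 95% Poisson interval of 3.86 to 6.90 CPM for counting error only, inside the CD73 KO range of 3.67 to 8.47 CPM, and thus goes against its label. The log2 fold change of Nt5e was -1.67 ± 0.72 (SE) with that library, at an adjusted p of 0.534, and -2.14 ± 0.37 without it, at an adjusted p of 0.339. Leaving out WT replicate 3 in its place gave -1.06. Counts over all 35 genes are given below with and without WT replicate 2, as are several counts of smaller lists that changed. Library totals lay between 6934150 and 19382950 counts, which makes 1 count worth 0.0532 to 0.142 CPM. All 8 CD8 T cell markers examined were detected in every library and summed to 4808 ± 203 CPM in CD73 KO libraries and 4382 ± 103 CPM in WT libraries. Of the markers of other cells, Cd4 held 0 to 5 counts and Ms4a1, Pax5, Csf1r, Lyz2, C1qa and Alas2 were at 0 in all 6 libraries, while Ctla4 and Ighm were abundant and carried most of the sums of the CD4 T cell list, 180.3 ± 43.2 CPM in CD73 KO libraries and 190.2 ± 62.8 CPM in WT libraries, and of the B cell list, 784 ± 41.6 CPM in CD73 KO libraries and 715 ± 34.7 CPM in WT libraries.

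Transcripts of the nucleotide synthesis genes were mostly somewhat less abundant in the CD73 KO libraries, but no single gene passed the test. Of the 35 genes, 32 had a log2 fold change below 0, while 47.7% of all 12242 tested genes did. Their median log2 fold change was -0.21, beside 0.01 over all tested genes. By edgeR's quasi-likelihood test with Benjamini-Hochberg adjustment over all tested genes, 0 of the 35 passed the threshold of 0.05, and the smallest adjusted p was 0.346. The background share was 0.0572%, or 7 of 12242 genes. DESeq2, with a background of 0.810%, and limma-voom, with 0.0490%, also called 0 of the 35, as did edgeR without a low-count filter, with 1.40%. At an unadjusted p under 0.05, 11 of the 35 were lower in CD73 KO, against 3.89% of all tested genes, and 0 were higher, against 5.75%.

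All 35 genes passed the low-count filter, with 49 to 12167 counts per library, so that none was admitted through 1 group alone. In 16 of the 35, every CD73 KO library lay below every WT library, a pattern seen in 7.60% of all tested genes. The opposite pattern, seen in 7.59% of all tested genes, occurred in 1, Ctps2. Summed over the 35 genes, the level was 5548, 5711 and 5714 CPM in the CD73 KO libraries, against 6331, 6568 and 6451 CPM in the WT libraries, and these sums did not overlap. The genes share each library's depth, RNA preparation and scaling and are not replicates of one another. In bulk samples, fewer cells of a type and less RNA per cell cannot be told apart.

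**Figure D1:**
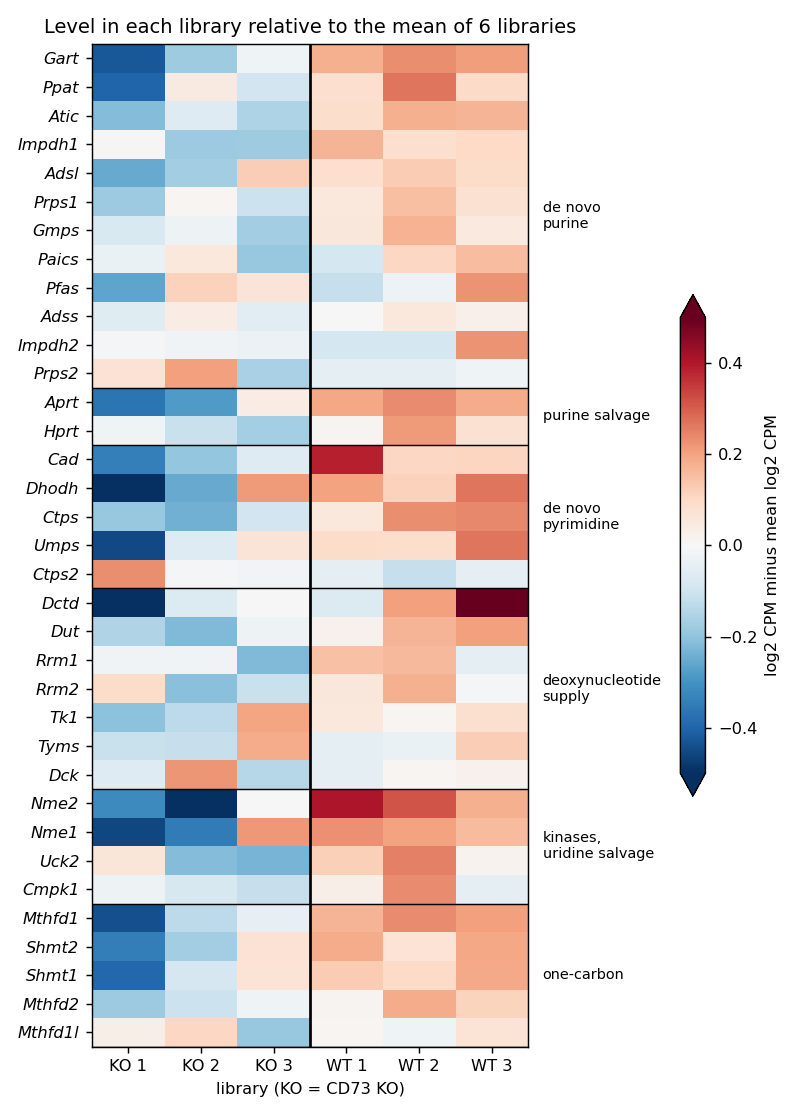
Log2 CPM of each of the 35 genes minus its mean over the 6 libraries (colour scale from -0.5 to 0.5, blue below the mean and red above it), with libraries in columns and genes in rows by role. Most rows are blue in the CD73 KO columns and red in the WT columns, with Ctps2, Prps2 and Dck the 3 genes whose fold change was above 0.

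In these genes the library labelled WT replicate 2 was mostly on the high side. It held the highest level of the 6 libraries in 15 of the 35 genes, against 15.9% of all tested genes, and the lowest in 1. Without it, 32 of the 35 still had a log2 fold change below 0, beside 48.7% of 12599 tested genes, and the median was -0.19. The count lower at an unadjusted p under 0.05 was then 6, beside a background of 1.52%, and 0 were higher, beside 2.96%. Lower without overlap were 17, beside 9.37%, higher without overlap was 1, beside 9.94%, and 0 passed the adjusted threshold, beside 0.0317%. CD73 KO replicate 1, the most deeply sequenced library, was the lowest of the 6 in 18 of the 35 genes, against 21.5% of all tested genes. The coefficient of variation was larger among CD73 KO than among WT libraries in 27 of the 35, against 61.6% of all tested genes, with medians of 11.8% in CD73 KO and 5.34% in WT. Over all tested genes these medians were 14.0% in CD73 KO and 10.7% in WT.

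**Figure D2:**
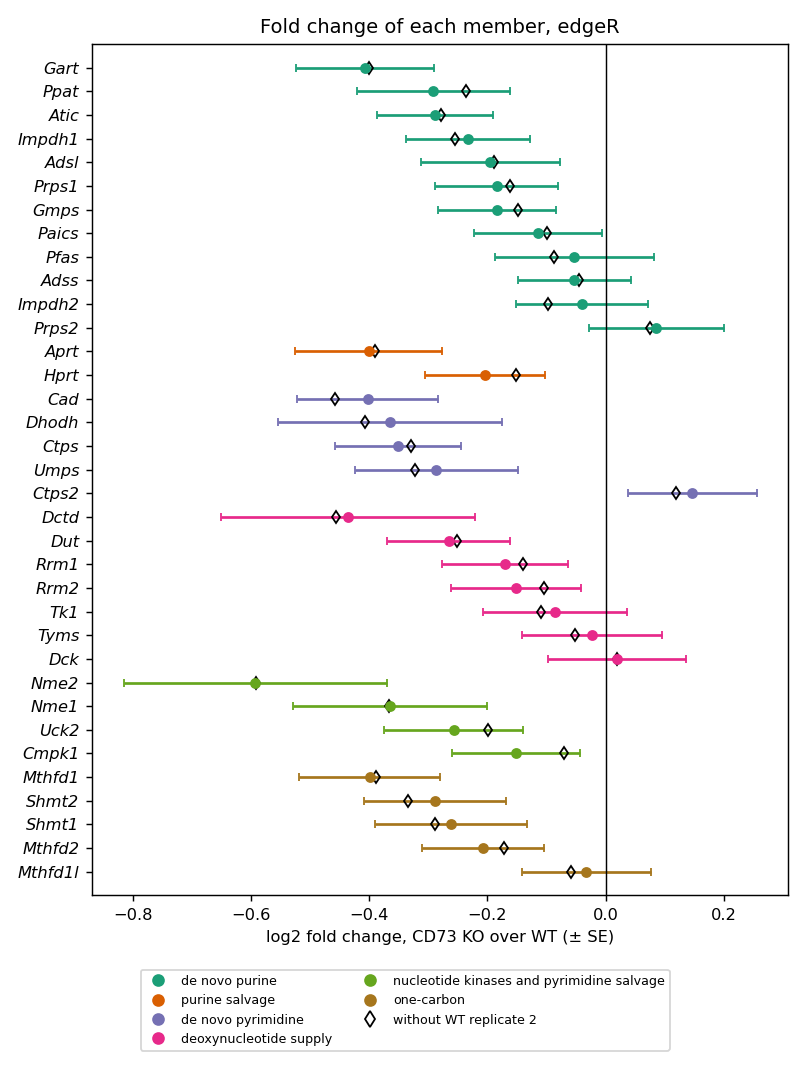
Log2 fold change of each gene, CD73 KO over WT, from edgeR (filled points with SE bars, 3 libraries each, coloured by role) and the same value without WT replicate 2 (open diamonds). Values run from -0.59 for Nme2 to 0.15 for Ctps2, and most sit between -0.5 and 0.

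De novo purine synthesis is represented by 12 genes, of which 11 had a log2 fold change below 0 (47.7% of all tested genes). Lower without overlap were 6 (7.60% of all tested genes), and 3 were lower at an unadjusted p under 0.05 (3.89%). Without WT replicate 2, only Gart of these 3 kept an unadjusted p under 0.05. The median log2 fold change of the 12 was -0.18, and their summed level was 2051 ± 86.0 CPM in CD73 KO libraries and 2286 ± 94.9 CPM in WT libraries (SD, n = 3 each). Gart (chr16:91621186-91646952, minus strand), a single protein that carries out several steps of ring building including a formyl transfer from folate, was measured at 149, 177 and 197 CPM in the CD73 KO libraries, against 226, 235 and 231 CPM in the WT libraries. All CD73 KO values lay below all WT values, with a log2 fold change of -0.41 ± 0.12 (SE) and an adjusted p of 0.346, the smallest of the 35. Atic (chr1:71557150-71579631, plus strand), which adds the last one-carbon unit and closes the ring to IMP, stood at 196, 218 and 205 CPM in the CD73 KO libraries, against 242, 258 and 256 CPM in the WT libraries. These groups did not overlap either, and the log2 fold change was -0.29 ± 0.10 at an adjusted p of 0.400. Ppat, the amidotransferase of the committed step, was at 83.9, 114 and 104 CPM in the CD73 KO libraries, against 117, 133 and 118 CPM in the WT libraries. CD73 KO replicate 1 was the lowest and the highest CD73 KO value lay just under the lowest WT value, with a log2 fold change of -0.29 ± 0.13 at an adjusted p of 0.515.

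The 3 remaining purine genes without overlap had log2 fold changes nearer to 0. Prps1, which makes the activated ribose that both ring pathways use, was measured at 74.3, 84.9 and 78.4 CPM in the CD73 KO libraries, against 87.5, 93.6 and 88.8 CPM in the WT libraries, a log2 fold change of -0.18 ± 0.10. Impdh1, one of a pair of IMP dehydrogenases that commit IMP to guanine nucleotides, was at 85.4, 74.9 and 75.2 CPM in the CD73 KO libraries, against 95.7, 90.1 and 91.0 CPM in the WT libraries, a log2 fold change of -0.23 ± 0.11. Gmps, which finishes GMP, was at 168, 174 and 157 CPM in the CD73 KO libraries, against 184, 199.9 and 183 CPM in the WT libraries, a log2 fold change of -0.18 ± 0.10. Their adjusted p-values were 0.594 for Prps1, 0.518 for Impdh1 and 0.583 for Gmps. The groups of the other 6 overlapped. Paics, the bifunctional carboxylase and synthetase of the middle of the chain and the most abundant of the 12 per kilobase, stood at 397, 421 and 357 CPM in the CD73 KO libraries, against 383, 436 and 452 CPM in the WT libraries, a log2 fold change of -0.11 ± 0.11. Adsl, a lyase used both before IMP and on the way to AMP, averaged 129 ± 18.3 CPM in CD73 KO libraries and 148 ± 2.18 CPM in WT libraries, and Pfas, the other amidotransferase of the chain, averaged 106 ± 14.4 CPM in CD73 KO libraries and 109.6 ± 13.6 CPM in WT libraries. Adss, which directs IMP to AMP, averaged 186 ± 7.05 CPM in CD73 KO libraries and 193 ± 3.32 CPM in WT libraries. Impdh2, the inducible IMP dehydrogenase of dividing lymphocytes, averaged 297 ± 2.42 CPM in CD73 KO libraries and 306 ± 39.5 CPM in WT libraries. It lies on the chromosome of Nt5e, 20.2 Mb away. Prps2, the isoform of Prps1, averaged 137 ± 17.3 CPM in CD73 KO libraries and 129 ± 1.23 CPM in WT libraries and was 1 of the 3 genes above 0, with a log2 fold change of 0.09 ± 0.11.

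Both purine salvage genes were lower without overlap, beside 7.60% of all tested genes. Hprt, which returns hypoxanthine and guanine to IMP and GMP, was measured at 245, 230.3 and 221 CPM in the CD73 KO libraries, against 251, 289 and 263 CPM in the WT libraries. The log2 fold change was -0.20 ± 0.10 and the adjusted p 0.550. Aprt (chr8:122574635-122576909, minus strand), which returns adenine to AMP, stood at 64.9, 68.7 and 85.9 CPM in the CD73 KO libraries, against 95.6, 98.5 and 95.1 CPM in the WT libraries. Its WT libraries were close together while CD73 KO replicate 3 was nearer to WT than the other 2 CD73 KO libraries, with a log2 fold change of -0.40 ± 0.12 at an adjusted p of 0.368.

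In de novo pyrimidine synthesis, 4 of 5 genes had a log2 fold change below 0 (47.7% of all tested genes), and the median was -0.35. Of the 5, 2 were lower at an unadjusted p under 0.05 (3.89% of all tested genes) and 3 were lower without overlap (7.60%). Cad (chr5:31054780-31078479, plus strand), the multifunctional enzyme that carries out the opening steps of the ring, was measured at 188, 208 and 228 CPM in the CD73 KO libraries, against 311, 255 and 257 CPM in the WT libraries. The groups did not overlap, and the log2 fold change was -0.40 ± 0.12 at an adjusted p of 0.361. Dhodh, the mitochondrial dihydroorotate dehydrogenase, averaged 20.0 ± 5.40 CPM in CD73 KO libraries and 25.6 ± 1.37 CPM in WT libraries, with overlapping groups and a log2 fold change of -0.36 ± 0.19. Umps, which joins orotate to ribose phosphate and yields UMP, stood at 86.9, 113 and 124 CPM in the CD73 KO libraries, against 127, 126 and 143 CPM in the WT libraries. Its highest CD73 KO value lay just below its lowest WT value, with a log2 fold change of -0.29 ± 0.14 at an adjusted p of 0.535.

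The 2 CTP synthases stood on opposite sides of 0. Ctps (chr4:120539868-120570276, minus strand), known in human T cells as the CTP synthase induced on activation, was measured at 78.5, 75.7 and 83.8 CPM in the CD73 KO libraries, against 92.9, 105 and 106 CPM in the WT libraries. The groups did not overlap, and the log2 fold change was -0.35 ± 0.11 at an adjusted p of 0.361. Ctps2, its X-linked paralog, was at 111, 93.8 and 93.2 CPM in the CD73 KO libraries, against 91.0, 87.0 and 91.0 CPM in the WT libraries. Here every CD73 KO value lay above every WT value, with CD73 KO replicate 1 well above the rest, and the log2 fold change was 0.15 ± 0.11 at an adjusted p of 0.684.

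**Figure D3:**
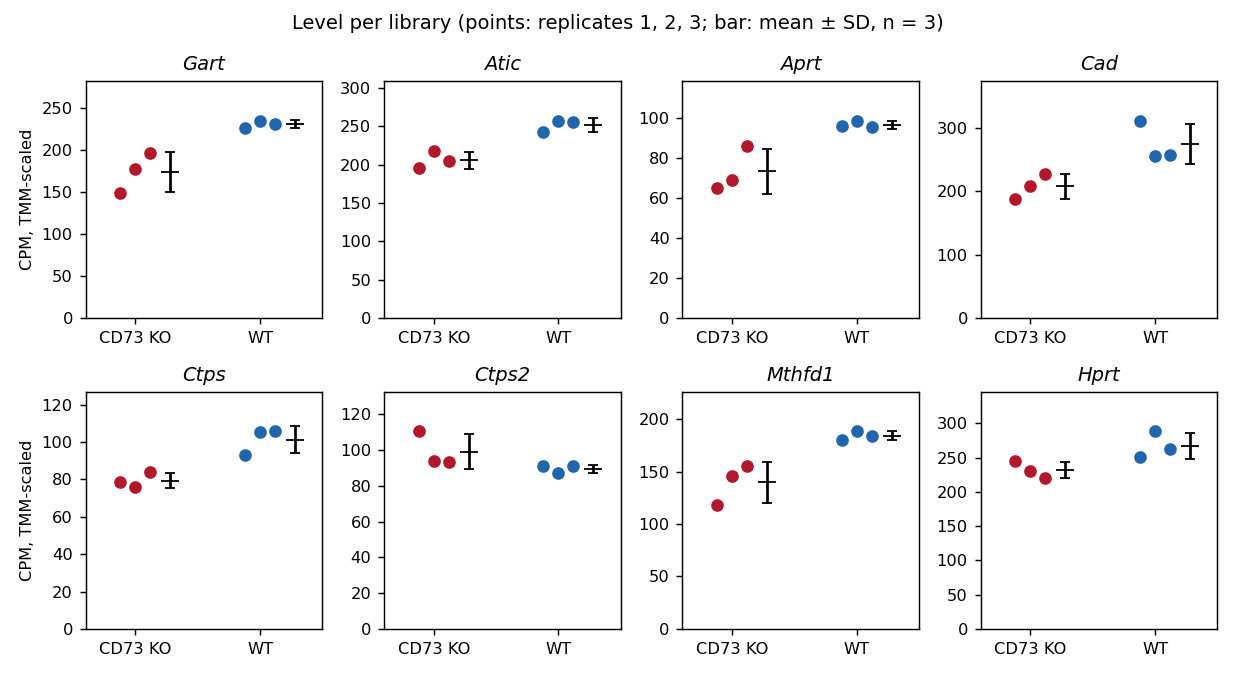
TMM-scaled CPM of 8 genes in each library (points from left to right: replicates 1, 2 and 3), with the mean ± SD (n = 3) beside them and axes that start at 0. In Gart, Atic, Aprt, Cad, Ctps, Mthfd1 and Hprt every CD73 KO point lies below every WT point, and in Ctps2 every CD73 KO point lies above.

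Supply of deoxynucleotides had 6 of 7 genes below 0 (47.7% of all tested genes) and 1 lower without overlap (7.60%). The median log2 fold change of the 7 was -0.15. Without CD73 KO replicate 2 this median was -0.10. The gene without overlap was Dut, which turns dUTP into dUMP and keeps uracil out of DNA. It was measured at 215, 204 and 234 CPM in the CD73 KO libraries, against 242, 268 and 275 CPM in the WT libraries, a log2 fold change of -0.26 ± 0.10 at an adjusted p of 0.481. Of the 7 it alone was lower at an unadjusted p under 0.05 (3.89% of all tested genes), a call not kept without WT replicate 2. Rrm2, the regulated subunit of ribonucleotide reductase, stood at 487, 395 and 423 CPM in the CD73 KO libraries, against 476, 518 and 456 CPM in the WT libraries. CD73 KO replicate 1 was within the WT range while the other 2 CD73 KO libraries were below it, and the log2 fold change was -0.15 ± 0.11 at an adjusted p of 0.679. Rrm1, the large subunit, averaged 619 ± 48.5 CPM in CD73 KO libraries and 696 ± 55.2 CPM in WT libraries, a log2 fold change of -0.17 ± 0.11. Tyms, which methylates dUMP to thymidylate with a folate one-carbon unit, averaged 116 ± 14.1 CPM in CD73 KO libraries and 117 ± 8.01 CPM in WT libraries, and Dctd, which deaminates dCMP to dUMP, averaged 12.1 ± 2.52 CPM in CD73 KO libraries and 16.4 ± 3.37 CPM in WT libraries. The salvage kinases were close to level. Tk1, the thymidine kinase of dividing cells, averaged 138 ± 21.3 CPM in CD73 KO libraries and 146 ± 3.54 CPM in WT libraries, and Dck, the deoxycytidine kinase, averaged 123 ± 16.8 CPM in CD73 KO libraries and 122 ± 3.11 CPM in WT libraries, with a log2 fold change of 0.02 ± 0.12.

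All 4 genes of nucleotide kinases and pyrimidine salvage had a log2 fold change below 0 (47.7% of all tested genes), with a median of -0.31. An unadjusted p under 0.05 was reached by 2, Nme1 and Nme2, beside 3.89% lower over all tested genes. Without WT replicate 2 it was reached by 0, beside 1.52%, and the unadjusted p-values of Nme1 and Nme2 in edgeR were 0.093 and 0.056. Nme1, a nucleoside diphosphate kinase that makes triphosphates, was measured at 68.8, 73.9 and 109.6 CPM in the CD73 KO libraries, against 111, 108 and 105 CPM in the WT libraries. CD73 KO replicates 1 and 2 were low while replicate 3 lay within the WT range, so the groups overlapped, and the log2 fold change was -0.36 ± 0.16 at an adjusted p of 0.517. Nme2, its close relative, stood at 4.95, 4.16 and 6.16 CPM in the CD73 KO libraries, against 8.17, 7.67 and 6.98 CPM in the WT libraries. The groups did not overlap, and its log2 fold change of -0.59 ± 0.22, at an adjusted p of 0.458, was the farthest from 0 of the 35, at the fewest counts. Uck2, which phosphorylates uridine and cytidine, averaged 201 ± 23.7 CPM in CD73 KO libraries and 239.7 ± 19.6 CPM in WT libraries, and Cmpk1, which phosphorylates UMP and CMP, averaged 113 ± 3.63 CPM in CD73 KO libraries and 125 ± 13.0 CPM in WT libraries, both with overlapping groups.

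The level of Nme2 is uncertain, because near-identical copies held more counts than the gene itself. Gm7730, a retrocopy 97.8% identical to Nme2, held 1295 counts over the 6 libraries and Gm5425, 97.6% identical, held 528, while Nme2 itself held 446. Of the Nme2 exon bases, 48.9% also belong to the readthrough gene Gm20390, as do 12.5% of those of Nme1. Summed with its 3 retrocopies, Nme2 was at 24.8, 26.1 and 31.4 CPM in the CD73 KO libraries, against 36.1, 40.3 and 36.2 CPM in the WT libraries. The sum was again lower without overlap, with a difference of mean log2 levels of -0.46. Impdh2 has a retrocopy, Impdh2-ps, 99.7% identical, that took 23.4% to 25.7% of their joint counts in each library. Summed, they averaged 396 ± 9.49 CPM in CD73 KO libraries and 410.3 ± 53.4 CPM in WT libraries, with overlapping groups. The strand setting of the counting is not given in the sources used here, so reads where Ppat and Paics overlap on opposite strands, 272 exon bases, cannot be assigned with certainty. The same holds for 19.7% of the exon bases of Gart (shared with Gm15964), 6.11% of those of Umps (Gm15829) and 4.74% of those of Shmt1 (Smcr8). Smaller shares of several other members are affected too.

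All 5 one-carbon genes had a log2 fold change below 0 (47.7% of all tested genes), with a median of -0.26. Of these, 2 had an unadjusted p under 0.05 (3.89% lower over all tested genes) and 3 were lower without overlap (7.60%). Mthfd1 (chr12:76255298-76319803, plus strand), the cytosolic enzyme that interconverts folate one-carbon forms and yields the formyl donor of purine synthesis, was measured at 118, 146 and 155 CPM in the CD73 KO libraries, against 180.0, 189 and 184 CPM in the WT libraries. The WT libraries were close together and all above CD73 KO, with a log2 fold change of -0.40 ± 0.12 at an adjusted p of 0.361. Mthfd2, the mitochondrial dehydrogenase and cyclohydrolase induced in activated T cells, stood at 117, 123 and 130.3 CPM in the CD73 KO libraries, against 134, 150.4 and 143 CPM in the WT libraries. These groups did not overlap, and the log2 fold change was -0.21 ± 0.10 at an adjusted p of 0.547. Shmt1, which takes a one-carbon unit from serine in the cytosol, was at 67.8, 84.0 and 93.5 CPM in the CD73 KO libraries, against 97.2, 95.1 and 102 CPM in the WT libraries, and its groups did not overlap, with a log2 fold change of -0.26 ± 0.13 at an adjusted p of 0.544. Shmt2, which does so in mitochondria, was at 188, 211 and 251 CPM in the CD73 KO libraries, against 271, 249.8 and 272 CPM in the WT libraries. CD73 KO replicate 3 lay above WT replicate 2 alone, and without that library the groups did not overlap. The log2 fold change was -0.29 ± 0.12 at an adjusted p of 0.502 with it and -0.33 ± 0.15 without it. Mthfd1l, the mitochondrial formyltetrahydrofolate synthetase, averaged 162 ± 16.7 CPM in CD73 KO libraries and 166 ± 5.11 CPM in WT libraries, a log2 fold change of -0.03 ± 0.11.

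Within a library, the ratio of counts of paired enzymes does not depend on depth or scaling. Of 7 pairs, 3 had ratios whose groups did not overlap, each with p = 0.1 by a two-sided exact permutation test, the smallest that 3 against 3 libraries allow, and 0.233 after Benjamini-Hochberg adjustment over the 7. How often other pairs of genes separate in this way was not computed. The log2 ratio of Ctps over Ctps2 was -0.49, -0.31 and -0.15 in the CD73 KO libraries, against 0.03, 0.27 and 0.22 in the WT libraries. The difference of the group means was -0.49. Separation of this ratio follows from the levels given above, where Ctps was lower and Ctps2 higher without overlap, and adds nothing to them. As a ratio of CPM per kilobase of exon, Ctps over Ctps2 was 1.01, 1.15 and 1.28 in the CD73 KO libraries, against 1.45, 1.72 and 1.65 in the WT libraries, so Ctps was nearest to Ctps2 in CD73 KO replicate 1. For Prps1 over Prps2 the log2 ratio of counts was -0.91, -0.85 and -0.60 in the CD73 KO libraries, against -0.55, -0.45 and -0.55 in the WT libraries, a difference of -0.26. For Mthfd2 over Mthfd1 it was -0.02, -0.25 and -0.25 in the CD73 KO libraries, against -0.43, -0.33 and -0.36 in the WT libraries, a difference of 0.20. Impdh2 over Impdh1 and Nme1 over Nme2 each differed by 0.20 with overlapping groups (exact p = 0.2 and 0.3), and Shmt2 over Shmt1 by -0.02 (exact p = 0.6). Rrm2 over Rrm1, the subunits of 1 enzyme, differed by 0.02 (exact p = 1).

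**Figure D4:**
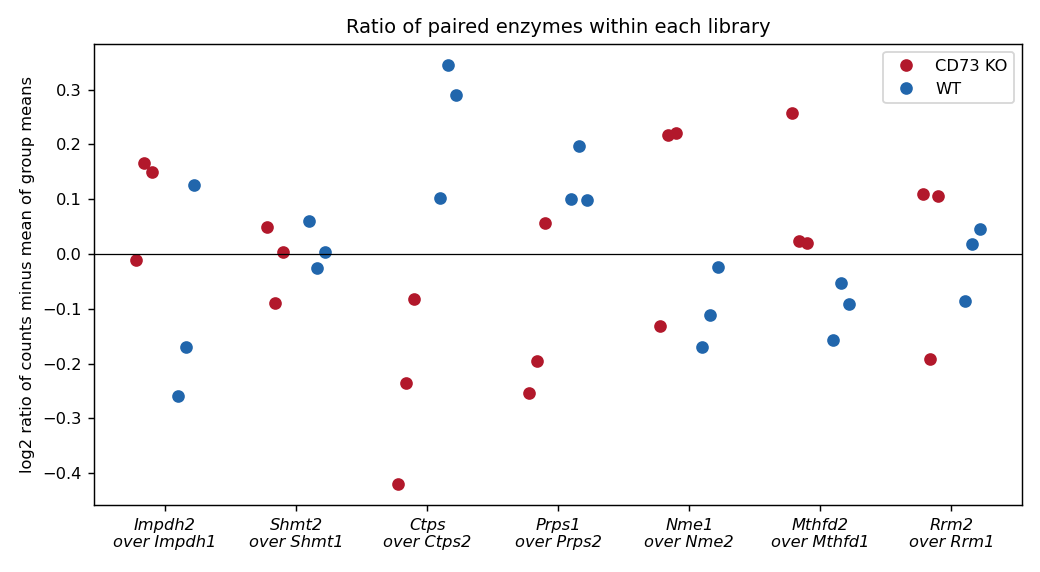
Log2 ratio of counts of 7 pairs of enzymes within each library (left red points: CD73 KO, right blue points: WT, replicates 1, 2 and 3 from left to right), centred on the mean of the group means of each pair. The groups are apart for Ctps over Ctps2, Prps1 over Prps2 and Mthfd2 over Mthfd1, and overlap for the other 4 pairs.

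Levels between genes were compared as CPM per kilobase of exon, with exon bases from GENCODE M21. Hprt was the highest of the 35 at 180.1 ± 9.47 in CD73 KO and 207 ± 14.9 in WT, followed by Rrm2 at 157 ± 17.1 in CD73 KO and 174 ± 11.4 in WT and Paics at 125 ± 10.3 in CD73 KO and 135 ± 11.6 in WT. Hprt and Rrm2 are neighbours whose order depends on the length used, since with the longest coding transcript in place of all exon bases, a choice made after seeing the data, Rrm2 was first and Hprt second. Rrm1, at rank 7 by all exon bases, then came next with Paics just under it, at 164.5 for Rrm1 and 164.3 for Paics over all 6 libraries. The lowest by all exon bases were Nme2 at 4.35 ± 0.861 in CD73 KO and 6.49 ± 0.51 in WT, Dctd at 3.55 ± 0.74 in CD73 KO and 4.80 ± 0.99 in WT and Dhodh at 3.16 ± 0.853 in CD73 KO and 4.04 ± 0.216 in WT. These were also the lowest 3 with the longest coding transcript, but with Nme2 last and Dhodh at 11.2 in place of 3.60 over all 6 libraries. Counts of retrocopies are left out of all these levels, so the places of Nme2 and Impdh2 in the order are uncertain. Nme2 alone averaged 5.09 ± 1.01 CPM in CD73 KO libraries and 7.60 ± 0.597 CPM in WT libraries. Summed with its retrocopies, it averaged 27.5 ± 3.46 CPM in CD73 KO libraries and 37.5 ± 2.39 CPM in WT libraries.

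RefSeq promoters on GRCm38.p6, 250 bases before to 50 after the start, were found for 33 of the 35 genes. Of these, 29 (87.9%) held a GC box (GGCGGG, either strand), against 68.5% of 8864 other tested genes. An E-box (CACGTG), the core to which Myc binds, was in 5 (15.2%), against 1064 of the 8864, namely Atic, Impdh2, Nme1, Paics and Tyms. TGACGT, the core shared by CREB and ATF factors, was in 6 (18.2% against 14.2%), and CCAAT in 13 (39.4% against 43.5%). The E2F-like runs TTGGCGC and TTCCCGC were in 3 (9.09% against 5.17%) and 5 (15.2% against 10.3%). These matches are descriptions of letters and not of binding. The promoters below are those of the gene of smallest p in de novo purine synthesis, purine salvage, pyrimidine synthesis and one-carbon metabolism, and of Ppat and Paics, whose starts lie 276 bases apart on opposite strands. Capitals mark the GC box, the CCAAT box, the CREB and ATF core and the E-box on either strand.
Gart (chr16:91646923-91647222, minus strand): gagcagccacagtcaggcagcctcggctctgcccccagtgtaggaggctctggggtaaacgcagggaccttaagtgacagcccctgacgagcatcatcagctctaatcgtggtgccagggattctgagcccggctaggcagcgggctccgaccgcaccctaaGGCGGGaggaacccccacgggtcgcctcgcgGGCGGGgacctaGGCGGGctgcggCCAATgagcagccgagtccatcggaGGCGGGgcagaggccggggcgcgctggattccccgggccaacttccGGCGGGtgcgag
Aprt (chr8:122576858-122577157, minus strand): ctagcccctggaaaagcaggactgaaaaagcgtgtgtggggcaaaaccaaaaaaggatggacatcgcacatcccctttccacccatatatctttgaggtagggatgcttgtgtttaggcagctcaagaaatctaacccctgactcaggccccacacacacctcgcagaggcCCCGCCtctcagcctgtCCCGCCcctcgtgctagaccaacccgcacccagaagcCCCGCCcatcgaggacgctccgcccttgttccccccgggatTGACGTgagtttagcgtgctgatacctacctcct
Cad (chr5:31054530-31054829, plus strand): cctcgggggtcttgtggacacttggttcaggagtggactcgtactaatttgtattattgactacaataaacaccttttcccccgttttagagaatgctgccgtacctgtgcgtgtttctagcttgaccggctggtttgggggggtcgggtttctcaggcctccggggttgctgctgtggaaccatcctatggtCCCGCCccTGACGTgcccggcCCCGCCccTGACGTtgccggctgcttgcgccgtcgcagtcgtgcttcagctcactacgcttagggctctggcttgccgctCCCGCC
Mthfd1 (chr12:76254982-76255281, plus strand): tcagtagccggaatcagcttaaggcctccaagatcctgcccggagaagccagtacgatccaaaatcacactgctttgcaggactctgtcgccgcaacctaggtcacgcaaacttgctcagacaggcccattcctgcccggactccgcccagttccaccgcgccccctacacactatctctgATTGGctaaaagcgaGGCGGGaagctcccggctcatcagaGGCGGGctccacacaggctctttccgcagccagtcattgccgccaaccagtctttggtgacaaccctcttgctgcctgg
Ppat (chr5:76951529-76951828, minus strand): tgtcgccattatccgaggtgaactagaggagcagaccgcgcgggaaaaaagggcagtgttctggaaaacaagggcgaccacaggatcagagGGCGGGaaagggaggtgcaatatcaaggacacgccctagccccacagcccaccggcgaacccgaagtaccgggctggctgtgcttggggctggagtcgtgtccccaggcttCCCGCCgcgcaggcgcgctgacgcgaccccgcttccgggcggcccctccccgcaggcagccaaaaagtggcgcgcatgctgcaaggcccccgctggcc
Paics (chr5:76951052-76951351, plus strand): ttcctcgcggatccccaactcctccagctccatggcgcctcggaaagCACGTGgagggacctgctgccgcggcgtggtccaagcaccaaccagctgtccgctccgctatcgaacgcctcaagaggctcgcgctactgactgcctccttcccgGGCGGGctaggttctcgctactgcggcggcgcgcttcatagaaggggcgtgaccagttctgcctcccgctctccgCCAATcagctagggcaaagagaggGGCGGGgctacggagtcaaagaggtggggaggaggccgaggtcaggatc
Gart has 5 GC boxes and 1 CCAAT, Aprt 3 GC boxes and 1 TGACGT, Cad 3 GC boxes and 2 TGACGT, and Mthfd1 2 GC boxes and 1 CCAAT. Paics has 1 E-box, 2 GC boxes and 1 CCAAT and Ppat has 2 GC boxes. The log2 fold change of Ppat was -0.29 ± 0.13 and that of its neighbour Paics -0.11 ± 0.11.

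Lists of other genes around these pathways were described in the same way, and 0 of their genes passed the adjusted threshold by edgeR with the low-count filter. Without the filter, 1 breakdown gene, Xdh, and 1 regulator, Myc, passed, beside 1.40% of all tested genes. Serine synthesis, which feeds one-carbon units, had all 3 genes below 0 (47.7% of all tested genes) and a median log2 fold change of -0.38. An unadjusted p under 0.05 was reached by 2 of them, beside 3.89% lower over all tested genes. Without WT replicate 2 that count was 1, Phgdh, beside 1.52%. Phgdh, the entry enzyme of serine synthesis, was measured at 279.8, 295 and 378 CPM in the CD73 KO libraries, against 402, 407 and 427 CPM in the WT libraries, and Psph, its last enzyme, at 34.2, 40.0 and 46.9 CPM in the CD73 KO libraries, against 49.4, 55.2 and 53.2 CPM in the WT libraries. Both were lower without overlap, 2 of the 3, beside 7.60% of all tested genes. Their log2 fold changes were -0.38 ± 0.12 (adjusted p = 0.387) and -0.38 ± 0.14 (adjusted p = 0.425). Among 18 tested genes of folate and methyl metabolism outside the 35, 13 were below 0, beside 47.7% of all tested genes. Without WT replicate 2 it was 15 of 20, beside 48.7%. The median of the 18 was -0.17, and 3 of the 18 were lower at an unadjusted p under 0.05, beside 3.89% of all tested genes. Of these, Ahcy, which clears S-adenosylhomocysteine, stood at 138, 140.3 and 148 CPM in the CD73 KO libraries, against 189, 170.4 and 179.8 CPM in the WT libraries, and Gcsh, a carrier protein of glycine cleavage, at 27.8, 29.6 and 30.3 CPM in the CD73 KO libraries, against 37.2, 39.2 and 39.0 CPM in the WT libraries. Both were lower without overlap, the only 2 of the 18, beside 7.60% of all tested genes. Their log2 fold changes were -0.34 ± 0.10 (adjusted p = 0.351) and -0.40 ± 0.12 (adjusted p = 0.361).

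Other kinases and salvage enzymes lay on both sides of 0, with a median of -0.10 over 19 genes. At an unadjusted p under 0.05, 4 were lower and 2 higher, beside 3.89% and 5.75% of all tested genes. Without WT replicate 2 the median was -0.04, with 3 lower and 0 higher, beside 1.52% and 2.96%. Nme6, a further nucleoside diphosphate kinase relative, was at 6.33, 6.54 and 7.80 CPM in the CD73 KO libraries, against 9.80, 11.6 and 12.2 CPM in the WT libraries, a log2 fold change of -0.70 ± 0.19 (adjusted p = 0.331), and Ak1, an adenylate kinase, held only 3, 9 and 5 counts in the CD73 KO libraries, against 22, 14 and 6 counts in the WT libraries. Ak1 was admitted by the low-count filter through the WT libraries alone, so its place among the 4 lower is not evidence of a difference. Genes of nucleotide breakdown and limitation had a median of -0.08 over 16 tested genes. At an unadjusted p under 0.05, 0 were lower and 2 higher, beside 3.89% and 5.75% of all tested genes. Xdh, which oxidises hypoxanthine and xanthine to urate, was measured at 198, 171 and 142 CPM in the CD73 KO libraries, against 108, 99.7 and 108 CPM in the WT libraries. Every CD73 KO library lay above every WT library, as in 1 of the 16 tested genes, beside 7.59% of all tested genes. The log2 fold change of Xdh was 0.69 ± 0.13 at an adjusted p of 0.145. It passed the threshold by DESeq2 (background 0.810%), at a log2 fold change of 0.69, and by edgeR without a filter (background 1.40%). No gene of this list passed by limma-voom, where the smallest adjusted p was 0.228. None passed by edgeR without WT replicate 2, where it was 0.640. Samhd1, which degrades deoxynucleoside triphosphates, was at 557, 410.0 and 346 CPM in the CD73 KO libraries, against 305, 385 and 315 CPM in the WT libraries, with groups that overlapped through WT replicate 2 alone and a log2 fold change of 0.39 ± 0.17 (adjusted p = 0.517).

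Of 12 regulators known for these pathways, 8 had a log2 fold change above 0 (9 without WT replicate 2), beside 6408 of all 12242 tested genes. The median was 0.02, or 0.01 to 0.07 with 1 library left out. Myc, which activates many nucleotide synthesis genes, was measured at 202, 196 and 172 CPM in the CD73 KO libraries, against 105, 113 and 176 CPM in the WT libraries. WT replicate 3 lay within the CD73 KO range, so the groups overlapped, and the log2 fold change was 0.54 ± 0.18 at an adjusted p of 0.418. Its unadjusted p in edgeR was 0.016, and 0.062 without WT replicate 2. With no low-count filter the log2 fold change was the same and the adjusted p was 0.00345. Atf4, which activates serine and mitochondrial one-carbon genes, was at 319, 209.8 and 234 CPM in the CD73 KO libraries, against 285, 305 and 251 CPM in the WT libraries, with overlapping groups and a log2 fold change of -0.14 ± 0.15 (adjusted p = 0.793). With 1 library left out, Atf4 ran from -0.34 without CD73 KO replicate 1 to -0.017 without CD73 KO replicate 2. E2f7, a repressor among the E2F factors, was at a log2 fold change of 0.34 ± 0.20 (edgeR adjusted p = 0.601).

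DNA replication and division genes, the users of deoxynucleotides, summed to 8827 ± 525 CPM in CD73 KO libraries and 8848 ± 326 CPM in WT libraries. Of 22 genes, 18 were below 0, beside 47.7% of all tested genes, and 15 without WT replicate 2, beside 48.7%. Their median log2 fold change was -0.05 (-0.08 without CD73 KO replicate 1). Lower without overlap was 1 and higher without overlap was 1, beside 7.60% and 7.59% of all tested genes. An unadjusted p under 0.05 was reached by 0, beside 3.89% lower and 5.75% higher over all tested genes. Mki67, a marker of dividing cells, stood at 1706, 1397 and 1217 CPM in the CD73 KO libraries, against 1489.7, 1266 and 1275 CPM in the WT libraries, and its groups overlapped. Its log2 fold change was 0.10 ± 0.13 at an adjusted p of 0.831. The smallest p-values of the list belonged to Top2a, which untangles DNA, with 0.18 ± 0.11 (adjusted p = 0.608), and Gins2, a part of the replication helicase, with -0.17 ± 0.11 (adjusted p = 0.639). The levels of markers of other cell types are given as sums. The 6 NK cell markers, several of which CD8 T cells express, summed to 1482 ± 42.0 CPM in CD73 KO libraries and 1297 ± 51.9 CPM in WT libraries, and the 6 stromal markers to 81.4 ± 20.6 CPM in CD73 KO libraries and 57.4 ± 8.97 CPM in WT libraries, with Cdh5, Col1a2 and Col3a1 at 0. The 2 tested stromal markers had log2 fold changes of 0.39 and 0.51, and 1 was higher at an unadjusted p under 0.05 in edgeR (5.75% of all tested genes). The 2 tested markers of the CD4 T cell list were at -0.74 and -0.07. Of these, 1 was lower at an unadjusted p under 0.05 in edgeR (3.89%), and 0 without WT replicate 2 (1.52%). The 8 myeloid markers summed to 1.10 ± 0.284 CPM in CD73 KO libraries and 2.46 ± 1.38 CPM in WT libraries and the 6 dendritic markers to 114 ± 1.92 CPM in CD73 KO libraries and 94.1 ± 26.5 CPM in WT libraries. The part of any cell type's markers in the levels of the 35 genes was not tested.

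**Figure D5:**
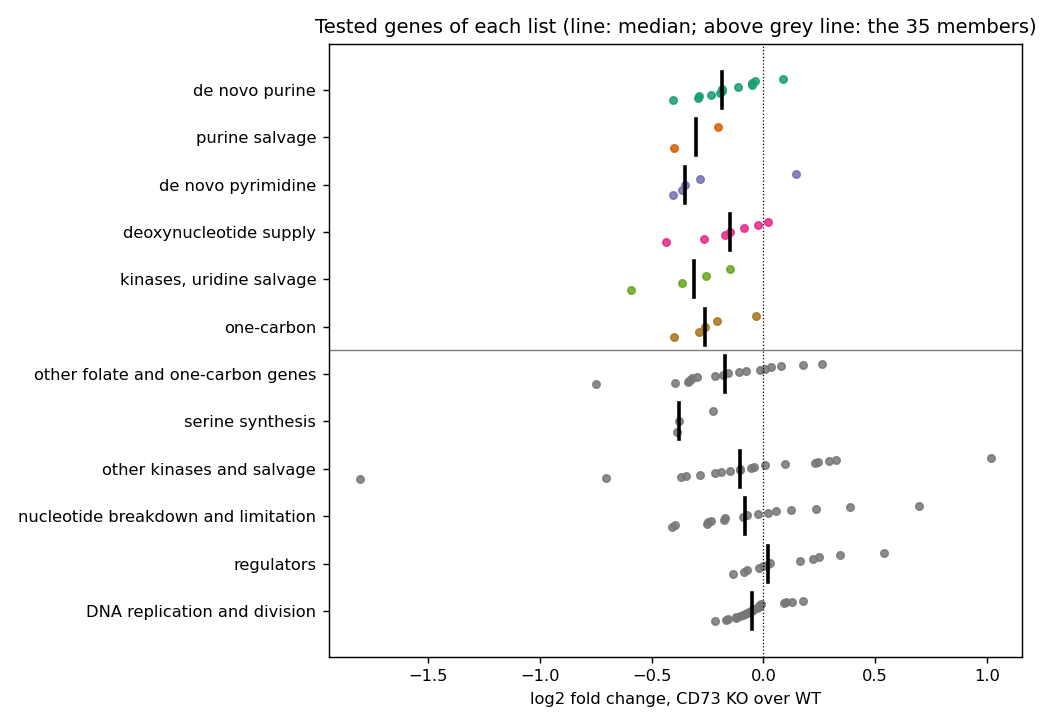
Log2 fold change, CD73 KO over WT, of every tested gene in the 6 role groups of the 35 genes (above the grey line) and in the 6 other lists (below it), with the median of each list as a vertical line. The medians of the role groups lie between -0.35 and -0.15, that of serine synthesis at -0.38, and those of regulators and of DNA replication and division at 0.02 and -0.05.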

How the data were processed

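The labels place 3 libraries in each genotype. The authors deposited raw read counts per gene, 1 column per library. The submitters' processing notes name fastp, HISAT2, featureCounts and the mm10 build. The sources used here do not give versions or the annotation release.

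The low-count filter was filterByExpr (edgeR 4.0.16 in R 4.3.3) at a minimum count of 10 and a minimum total of 15, leaving 12242 genes. Genotypes were compared with the quasi-likelihood F-test (TMM factors, robust estimates, legacy fit), with Benjamini-Hochberg adjustment across the tested genes. Each SE is the size of the log2 fold change over the square root of F. Alternatives were RLE factors, library size alone, no filter, 1 CPM in 3 libraries, a fit without robust estimation, the edgeR 4 fit, a block for the replicate number, thinning to the smallest total, each replicate left out, DESeq2 1.42.0 and limma-voom (limma 3.58.1). Log2 ratios of paired enzymes used counts plus 0.5. Retrocopies were matched with blastn 2.17.0 (E-value limit 1e-20, coverage of at least 70%). Coordinates are GENCODE M21 on GRCm38, the assembly of mm10. The fit was tested on simulated data.

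The 35 genes and the other lists were chosen with earlier results of these data known. Every one of the 35 is named. Values per library are given where groups do not overlap, where the unadjusted p is under 0.05, and for the 3 highest per kilobase. Of each other list, up to 2 genes of smallest p are named, with Nt5e, Myc, Atf4 and Mki67. Pnp was not analysed here.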

Additional observations from a re-analysis of the deposited data

How the results depend on the processing

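Over 16 alternatives, 0 of the 35 genes passed the adjusted threshold, the median log2 fold change of the 35 stayed between -0.25 and -0.19, and 29 to 33 of them were below 0. Of the 35, 29 kept their sign throughout. The count of changed genes was 7, and 298 without a filter, 99 by DESeq2 and 4 to 8 with a replicate left out. The count of the 35 that were lower at an unadjusted p under 0.05 was 11, and 6 to 16 with a replicate left out, with 6 when WT replicate 2 was left out (1.52% of all tested genes), 7 for CD73 KO replicate 2 (3.93%) and 16 for CD73 KO replicate 3 (6.72%). With a replicate left out, the median was -0.40 to -0.21 for de novo pyrimidine synthesis (-0.21 without CD73 KO replicate 1), -0.37 to -0.18 for the one-carbon genes (-0.37 without CD73 KO replicate 3), -0.21 to -0.097 for deoxynucleotide supply (-0.097 without CD73 KO replicate 2), -0.20 to -0.10 for other folate genes, 0.014 to 0.074 for regulators, -0.084 to -0.042 for DNA replication and division, -0.11 to -0.035 for other kinases and -0.15 to -0.042 for nucleotide breakdown, which was 0.0017 without a filter and -0.0062 by DESeq2. With a replicate left out, log2 fold changes that changed sign were those of Prps2 (-0.0011 to 0.18), Pfas (-0.13 to 0.051), Impdh2 (-0.098 to 0.070), Tyms (-0.13 to 0.033), Dck (-0.097 to 0.089), Mthfd1l (-0.095 to 0.046) and Mki67 (-0.047 to 0.21), and likewise the differences in log2 ratio of Shmt2 over Shmt1 (-0.055 to 0.014) and Rrm2 over Rrm1 (-0.035 to 0.12). Nt5e ran from -2.14 to -1.06, and Atf4 from -0.34 to -0.017. The cause was not tested. Same-numbered libraries correlated at 0.15, -0.17 and 0.01 in their deviations from the group means, and differently numbered ones at -0.32 to 0.36. With 3 libraries in each group, this cannot decide whether same-numbered samples share an animal or a day. With the replicate block, 5 genes were called, 16 of the 35 were lower at an unadjusted p under 0.05, beside 4.16% of all tested genes, and the median of the 35 was -0.21. Nme2 had the fewest counts of the 35, at 49 and above per library. Its retrocopies held 77.4% to 84.1% of their joint counts in each library, so its level is limited by read assignment as well as by depth.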
